A study of Mus musculus with 8 samples.

Results

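Transcripts of immunoglobulin chains and of proteins that antibody-secreting cells use were followed across mouse blood stem and progenitor cells. The 10 genes were Ighm, Igha, Ighg3, Igk, Igk-V21, Igkv15-103, Jchain, Mzb1, Derl3 and Pou2af1. They were chosen by name, with group differences on these same arrays already known, so their values below are a description and carry no test. The platform annotation gave a single symbol from this list to 28 of the 45037 probe sets measured apart from controls, and the genes are 10 of 18193 named ones. Each array value is a log2 signal that goes no lower than a floor of 3.32, where values cannot be ranked.

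The arrays measured RNA of non-transformed CD45.1+ cells from chimeric mice. CD45.1+ hosts had received CD45.1+ marrow mixed evenly with CD45.2+ marrow from BCR-ABL x SCL-tTA donors, and the mice without the BCR-ABL transgene served as controls. BCR-ABL, the kinase fusion behind chronic myeloid leukaemia, is expressed under the SCL-tTA driver, which acts in stem and progenitor cells after tetracycline has been removed from the drinking water. The cells were sorted 4 weeks after that withdrawal, and the sorted CD45.1+ cells themselves carried no transgene. Host cells that survived would carry the same CD45.1 marker. The 4 groups, with 2 arrays each, were HSC from leukemic mice, HSC from normal mice, KSL from leukemic mice and KSL from normal mice. KSL is the gate of lineage negative, Kit+ and Sca-1+ cells, and HSC are the CD150+ CD48- cells within it. The labels do not say that replicates are separate animals, so p-values measure only the spread between these samples.

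B cells build an antibody from heavy chains, whose constant region sets the class, and from kappa or lambda light chains. Plasma cells, the end stage of the lineage, live largely in bone marrow and devote much of their messenger RNA to these chains. Early lymphoid progenitors can transcribe unrearranged heavy chain genes, so heavy chain signal alone does not mark a mature B cell. In bulk RNA, fewer cells of a type and less RNA per cell cannot be told apart.

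The arrays had medians of 5.74 to 5.86, and 14.9% to 15.7% of all probe sets lay at the floor. Replicate arrays correlated with r = 0.949 in HSC from leukemic mice, 0.957 in HSC from normal mice, 0.993 in KSL from leukemic mice and 0.985 in KSL from normal mice, across probe sets, which are not independent replicates. The sort gate genes followed the labels. Slamf1, which encodes CD150, was at 8.47 and 8.23 in HSC from leukemic mice and 8.90 and 9.36 in HSC from normal mice, against 5.98 and 5.27 in KSL from leukemic mice and 5.76 and 7.06 in KSL from normal mice. Xist, the RNA that coats the inactive X chromosome, was at 5.79 on HSC normal 1 and 3.67 on KSL normal 1, far below the other 6 arrays, so replicate 1 of both normal groups has a male pattern and each normal group holds 1 such array.

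The members formed a broad contrast among the 4 groups. For the brighter probe sets, signal was high in both KSL groups and mostly low in HSC from normal mice. In HSC from leukemic mice it was near the KSL level for some chains and not for others. Several probe sets were dim in all 4 groups. Whether contaminating RNA from cells outside the gates, such as plasma cells, gave part of this signal was not tested. Summed over the 10 genes on a linear scale, with 1 probe set per gene, the signal was 18989 and 26755 in HSC from leukemic mice, against 2917 and 676 in HSC from normal mice. It was 27200 and 24669 in KSL from leukemic mice, against 31760 and 49706 in KSL from normal mice. These sums follow the brightest genes, above all Igha, Igk and Ighm. On HSC normal 1 most of the sum came from Igk, at 11.14 log2.

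**Figure D1:**
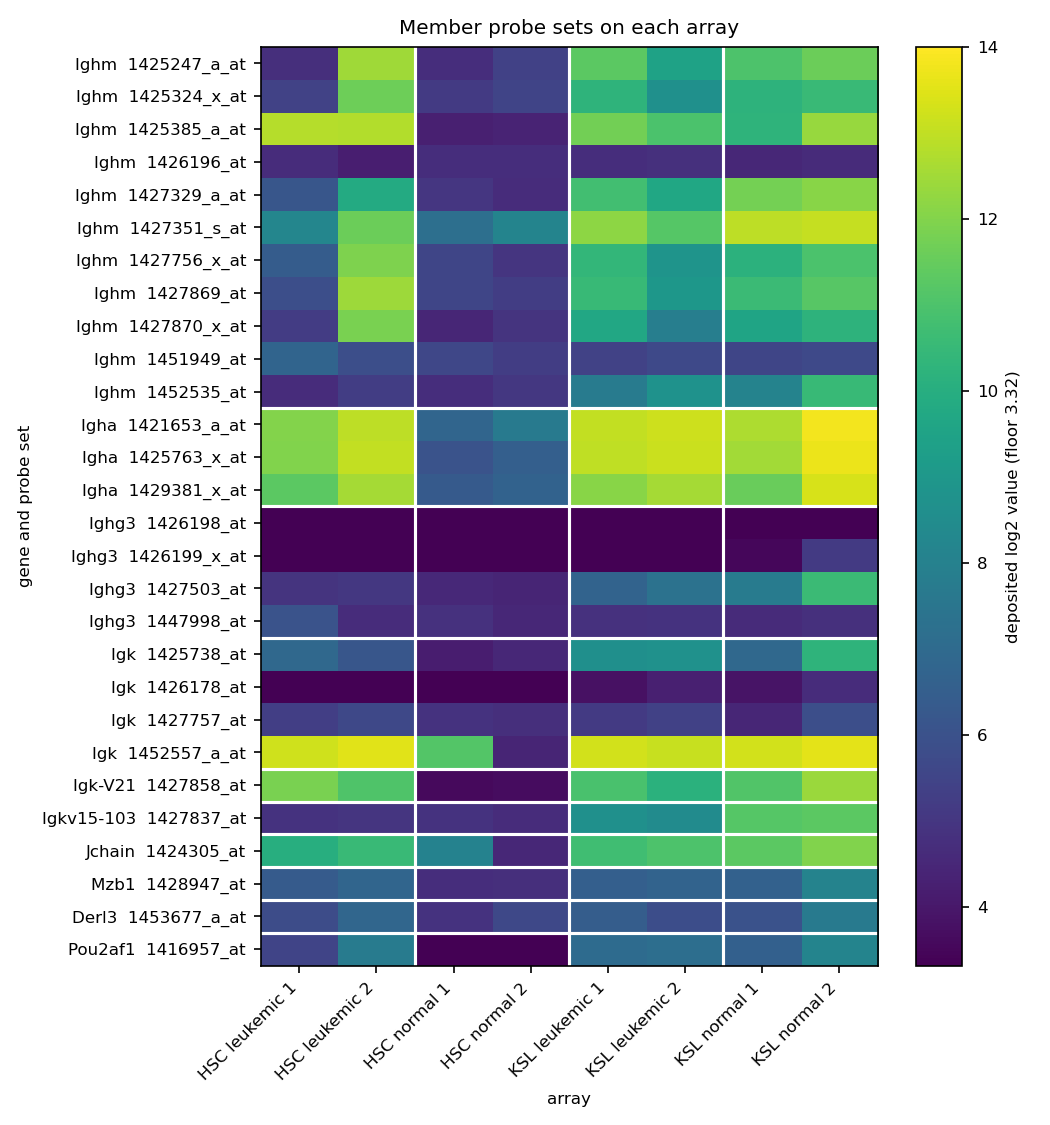
Log2 value of each of the 28 member probe sets (rows, grouped by gene) on each of the 8 arrays (columns, grouped by cell gate and mouse). Dark cells are at or near the floor of 3.32. The HSC normal columns are dark for most rows, and the Ighm rows differ between the 2 HSC leukemic columns.

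Igha encodes the constant region of the IgA heavy chain. Its brightest probe set, 1421653_a_at, was at 12.01 and 12.94 in HSC from leukemic mice, against 6.81 and 7.67 in HSC from normal mice. In KSL it was at 13.02 and 13.21 for leukemic mice, against 12.67 and 13.83 for normal mice. All 4 arrays of KSL and both HSC leukemic arrays were high, and the HSC normal pair stood apart from them. The difference in HSC was 5.23 ± 0.57 (SE, n = 2 arrays per group), a 37.6-fold higher signal, and in KSL it was -0.14 ± 0.57. The other Igha probe sets, 1425763_x_at and 1429381_x_at, showed the same picture, with HSC differences of 6.19 ± 0.56 and 5.42 ± 0.75. With each array left out in turn the HSC difference of 1421653_a_at stayed between 4.77 and 5.70.

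Ighm encodes the constant region of the IgM heavy chain and has 11 probe sets, which did not report alike. Probe set 1425385_a_at was at 12.81 and 12.77 in HSC from leukemic mice, against 4.26 and 4.39 in HSC from normal mice. In KSL it was at 11.73 and 10.98 for leukemic mice, against 10.28 and 12.37 for normal mice. Its HSC difference was 8.46 ± 0.74, and its size depends on normal values not far above the floor. The HSC leukemic arrays were its 2 highest, above every KSL array.

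Other Ighm probe sets split the HSC leukemic pair. Probe set 1425247_a_at was at 4.75 on HSC leukemic 1 and 12.49 on HSC leukemic 2, against 4.71 and 5.38 in HSC from normal mice. The first of these arrays was thus as low as the normal ones and the second above every KSL array, a gap of 7.74 between replicates. Likewise 1427869_at was at 5.90 and 12.44 in HSC from leukemic mice, against 5.54 and 5.27 in HSC from normal mice. The probe sets 1425324_x_at, 1427756_x_at and 1427870_x_at behaved in the same way, at 5.44, 6.42 and 5.22 on HSC leukemic 1 and at 11.64, 11.93 and 11.84 on HSC leukemic 2. For the Ighm representative with the highest mean, 1427351_s_at, the values were 8.23 and 11.62 in HSC from leukemic mice and 7.24 and 8.14 in HSC from normal mice. Its HSC difference of 2.23 ± 1.21 became 0.54 without HSC leukemic 2 and 3.93 without HSC leukemic 1. Probe set names ending in _x_at mark designs whose probes can pair with other transcripts too, and those in _s_at mark probes shared between transcripts, so near-identical heavy chain sequences may be read together.

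The KSL arrays lit the same Ighm probe sets. For 1427351_s_at the values were 12.18 and 11.20 in KSL from leukemic mice, against 12.93 and 13.08 in KSL from normal mice, and the groups did not overlap. For 1427329_a_at they were 10.77 and 9.68 in KSL from leukemic mice, against 11.79 and 12.11 in KSL from normal mice. Probe set 1452535_at was at 4.67 and 5.28 in HSC from leukemic mice, 4.70 and 5.05 in HSC from normal mice, 7.78 and 8.76 in KSL from leukemic mice and 8.10 and 10.52 in KSL from normal mice, so it was low in HSC whichever mice they came from. The dim probe sets 1426196_at and 1451949_at stayed between 4.23 and 6.75 on all 8 arrays.

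Ighg3 encodes the constant region of the IgG3 heavy chain and was weak in HSC of both kinds of mice. Probe set 1427503_at was at 4.91 and 5.07 in HSC from leukemic mice, against 4.56 and 4.42 in HSC from normal mice. It was at 6.71 and 7.34 in KSL from leukemic mice, against 7.75 and 10.59 in KSL from normal mice, so the KSL groups did not overlap, with a difference of -2.15 ± 0.97, which was -0.73 without KSL normal 2 and -3.57 without KSL normal 1. Probe set 1426198_at lay at the floor on all 8 arrays, and 1426199_x_at left it only in KSL from normal mice, at 3.51 and 5.14. Probe set 1447998_at was at 6.06 and 4.69 in HSC from leukemic mice and between 4.50 and 4.87 on the other 6 arrays.

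Among the light chain members, Igk stands for the kappa locus as a whole. Its brightest probe set, 1452557_a_at, was at 13.23 and 13.51 in HSC from leukemic mice, against 11.14 and 4.42 in HSC from normal mice. HSC normal 1 was therefore lower than every leukemic array but far above HSC normal 2. The difference of 5.59 ± 2.23 was 2.23 without HSC normal 2 and 8.95 without HSC normal 1, so a single control array sets its size. In KSL the probe set was at 13.26 and 13.11 for leukemic mice, against 13.27 and 13.57 for normal mice. Probe set 1425738_at was at 6.95 and 6.17 in HSC from leukemic mice and 4.16 and 4.50 in HSC from normal mice. Of the other Igk probe sets, 1427757_at lay between 4.48 and 5.87 throughout, and 1426178_at was at the floor on all HSC arrays and between 3.80 and 4.69 on the KSL arrays.

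Igk-V21 and Igkv15-103 are kappa variable segments, the part of a light chain that differs between B cell clones. Igk-V21 (1427858_at) was at 11.84 and 11.04 in HSC from leukemic mice, against 3.61 and 3.67 in HSC from normal mice. It was at 10.93 and 10.16 in KSL from leukemic mice, against 11.09 and 12.41 in KSL from normal mice. HSC from normal mice stood near the floor and every other array was bright. The HSC difference of 7.80 ± 0.57, whose size depends on normal values close to the floor, stayed between 7.40 and 8.20 with any array left out.

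Igkv15-103 (1427837_at) did not follow Igk-V21. It was at 4.88 and 4.96 in HSC from leukemic mice and 4.89 and 4.69 in HSC from normal mice, a difference of 0.13 ± 0.11. In KSL it was at 8.69 and 8.47 for leukemic mice, against 11.20 and 11.31 for normal mice, a difference of -2.68 ± 0.11, or a 6.41-fold lower signal. The KSL groups were separated by far more than their replicate gaps, and both HSC groups lay in 1 narrow band. The order of the levels was thus KSL from normal mice, KSL from leukemic mice, then both HSC groups, which overlapped.

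**Figure D2:**
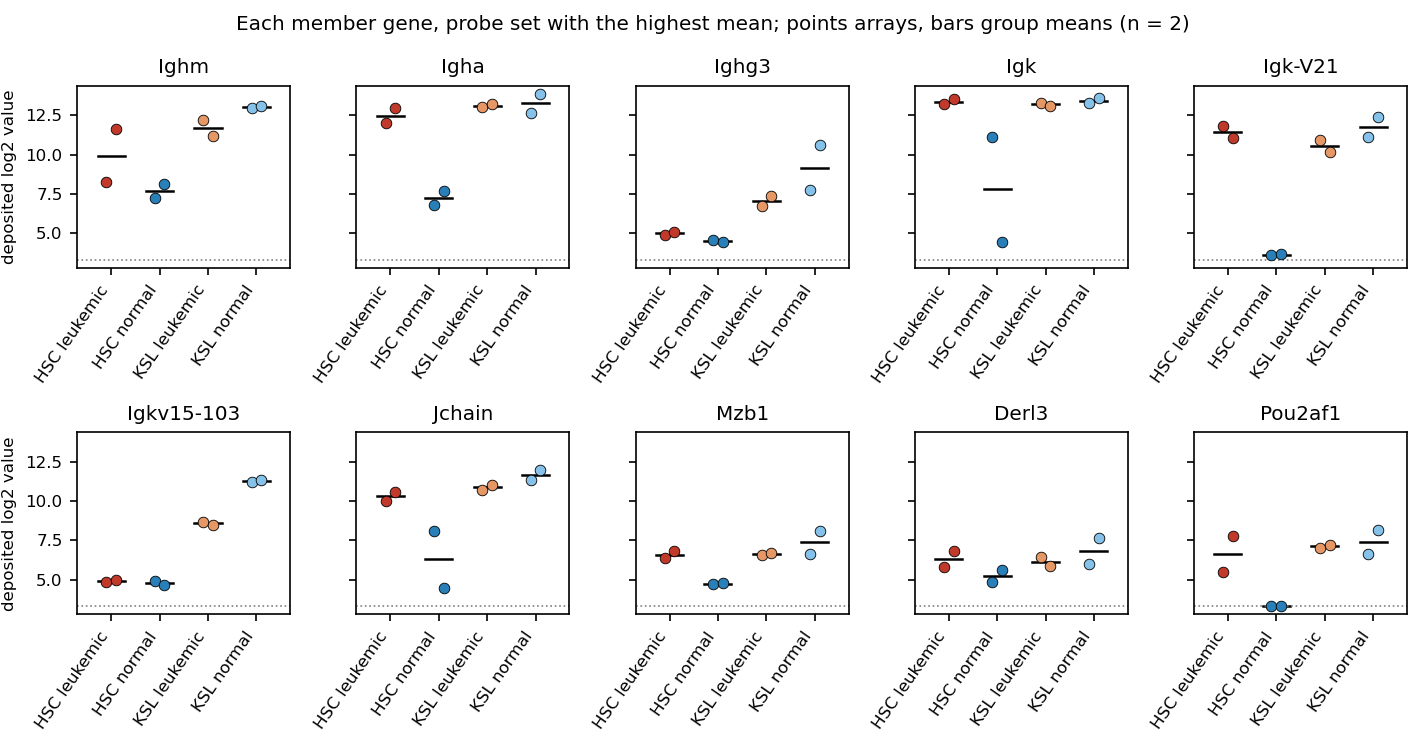
Deposited log2 value (y axis) of each of the 10 genes, by the probe set with the highest mean, in the 4 groups (x axis). Points are arrays, bars are group means of 2 arrays, and the dotted line is the floor. Igk-V21 separates HSC from leukemic mice (11.84 and 11.04) from HSC from normal mice (3.61 and 3.67), while Igkv15-103 differs only between the gates and between the KSL groups.

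Jchain encodes the joining chain that links IgM and IgA into polymers. It was at 10.03 and 10.57 in HSC from leukemic mice, against 8.08 and 4.50 in HSC from normal mice. As with Igk, HSC normal 1 was the higher of the normal pair, and the difference of 4.01 ± 1.22 was 2.23 without HSC normal 2 and 5.80 without HSC normal 1. In KSL it was at 10.72 and 11.02 for leukemic mice, against 11.33 and 11.97 for normal mice, and these groups did not overlap.

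HSC normal 1 also carried more signal of another cell type than HSC normal 2. The 10 measured neutrophil markers of 12 listed summed on a linear scale to 13280 to 19029 in HSC from leukemic mice and 606 to 10170 in HSC from normal mice. They summed to 5279 to 8369 in KSL from leukemic mice and 3455 to 5131 in KSL from normal mice. S100a8, a calcium-binding protein abundant in neutrophils, was at 13.11 and 12.34 in HSC from leukemic mice, against 11.79 and 7.93 in HSC from normal mice. The array low in S100a8 was thus also the one low in Igk and Jchain, but Igha 1421653_a_at, Ighm 1427351_s_at and Derl3 were higher on it than on HSC normal 1. Over the 28 member probe sets, HSC normal 2 was the higher of the pair on 14 and HSC normal 1 on 10. The part of the neutrophil signal in the members' values was not tested.

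The remaining members are not antibody chains. Mzb1 and Derl3 encode proteins of the endoplasmic reticulum. Mzb1 aids the assembly of antibody in secreting cells, and Derl3 takes part in the removal of misfolded proteins. Pou2af1 encodes the coactivator OCA-B, through which Oct transcription factors act at immunoglobulin promoters. Mzb1 was at 6.39 and 6.81 in HSC from leukemic mice and 4.70 and 4.78 in HSC from normal mice, a difference of 1.86 ± 0.50. It was at 6.54 and 6.70 in KSL from leukemic mice and 6.66 and 8.10 in KSL from normal mice.

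Pou2af1 lay at the floor on both arrays of HSC from normal mice. In HSC from leukemic mice it was at 5.52 and 7.75, at least 9.94-fold higher. That lower bound of 3.31 log2 units became 2.20 with HSC leukemic 2 left out and 4.43 with HSC leukemic 1 left out. In KSL it was at 7.04 and 7.20 for leukemic mice, against 6.60 and 8.14 for normal mice, where the groups overlapped. Derl3 was at 5.82 and 6.85 in HSC from leukemic mice and 4.87 and 5.62 in HSC from normal mice, and its difference of 1.09 ± 0.72 was the smallest of the 3, and it shrank to 0.58 once HSC leukemic 2 was left out. In KSL it was at 6.46 and 5.84 for leukemic mice, against 6.00 and 7.67 for normal mice. Pou2f2, the Oct factor that OCA-B partners in B cells, was at 7.68 and 7.68 in HSC from leukemic mice, against 7.20 and 7.13 in HSC from normal mice. Its difference of 0.52 ± 0.13 did not pass limma's test (adjusted p = 0.252).

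The promoter of Derl3, one of 3 members (with Jchain and Pou2af1) in the RefSeq promoter table of assembly GRCm38.p6, is shown because it holds a motif linked to the stress response of the endoplasmic reticulum. It spans chr10:75893148-75893447 on the plus strand, from 250 bases before the transcription start to 50 after it. Capitals mark both ends of the ER stress element, which was searched as CCAAT, 9 bases of any kind and CCACG on either strand after this promoter had been looked at, and is on the minus strand here.
Derl3: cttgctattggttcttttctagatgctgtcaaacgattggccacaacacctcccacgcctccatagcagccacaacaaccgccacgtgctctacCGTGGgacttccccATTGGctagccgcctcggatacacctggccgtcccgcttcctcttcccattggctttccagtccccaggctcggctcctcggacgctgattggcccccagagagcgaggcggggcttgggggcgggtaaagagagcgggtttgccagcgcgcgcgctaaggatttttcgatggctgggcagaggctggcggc
The element was found in 39 of 32851 promoters (0.119%) and in none of the other 2 members' windows. The octamer ATGCAAAT, the site that Oct factors and OCA-B use, was found in 570 of 32851 promoters (1.74%) and in 0 of the 3 member windows on either strand. A match or its absence in these windows says only that the letters are or are not there.

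Over all 28 probe sets, HSC from leukemic mice were higher than HSC from normal mice on 24, lower on 1 and equal at the floor on 3, with a median difference of 2.70 against 0.00 over all probe sets. Of these, 19 were higher without overlap of the arrays, a state that 15.1% of all probe sets had, and 14 were over 3 log2 units higher, which 0.0844% of all probe sets were. Those 14 were among 38 probe sets in all, and 8 more of the 38 carried immunoglobulin names outside the 10 genes. limma called 0 of the 28 at an adjusted p under 0.05, against 0.0688% of all probe sets. Its unadjusted p was under 0.05 for 9 of the 28, and for 5711 of all 45037. The members were selected on these differences, so the counts describe the list and support nothing about it.

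In KSL the members leaned the other way. KSL from leukemic mice were lower than KSL from normal mice on 22 of 28 probe sets, higher on 5 and equal on 1, with a median of -0.72. Of these, 9 were lower without overlap, where 21.3% of all probe sets were, and 9 were more than 1 log2 unit lower, where 1.35% were. limma called 1 probe set, Igkv15-103, against 0.0111% of all. That call was lost whichever of the 8 arrays was left out, although its size stayed between -2.79 and -2.57. Within KSL from normal mice, replicate 2 was above replicate 1 on 27 of the 28 probe sets and the other was at the floor on both, with a median gap of 0.802, against 0.163 over all probe sets. The sign of several KSL differences therefore turned with 1 array. Without KSL normal 2 they became 0.45 for Igha, 0.52 for Pou2af1 and 0.15 for Derl3.

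**Figure D3:**
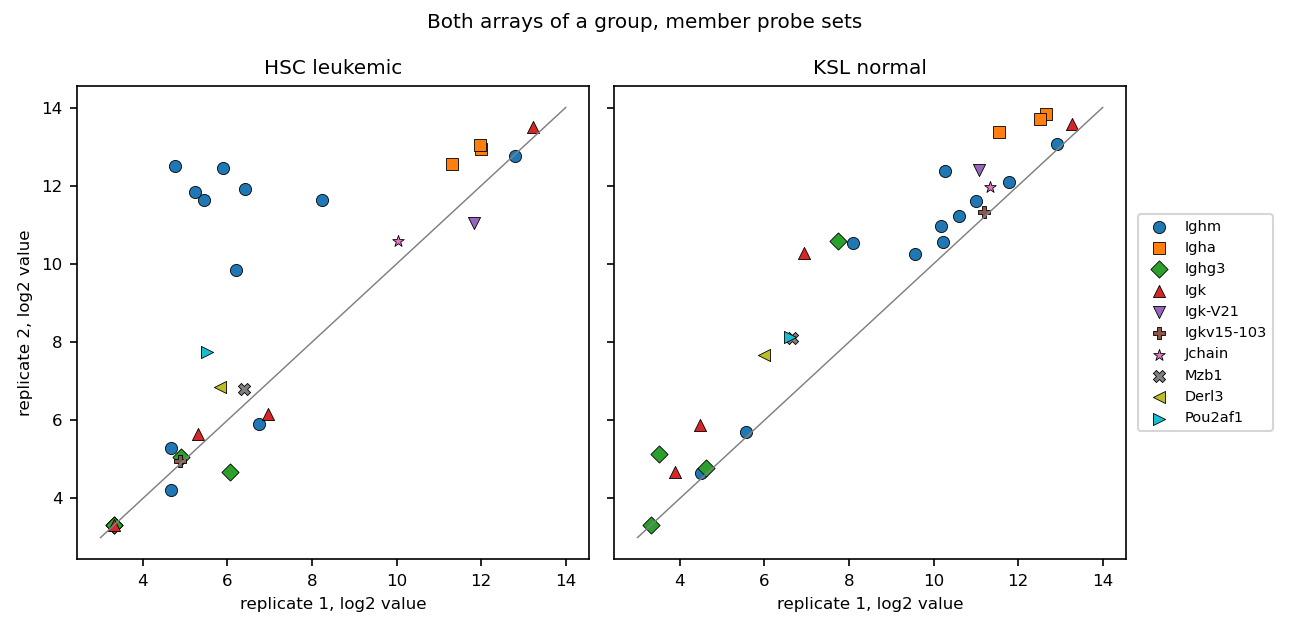
Replicate 1 (x axis) against replicate 2 (y axis) of the 28 member probe sets in log2 values, for HSC from leukemic mice (left) and KSL from normal mice (right), with a line of equal values. In HSC from leukemic mice several Ighm probe sets lie far above the line, and in KSL from normal mice 27 of 28 lie above it.

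Between the gates of normal mice, HSC were lower than KSL on 26 of 28 member probe sets, with a median difference of -5.13. No overlap with HSC lower was seen on 23 of them, against 20.6% of all probe sets, and 19 were over 3 log2 units lower, against 0.353% of all. limma called 5 of these (Ighm 1425385_a_at, Igha 1421653_a_at and 1425763_x_at, Igk-V21 and Igkv15-103), against 0.877% of all. In leukemic mice the gates lay closer for most members. HSC were lower than KSL on 19 of 28, higher on 7 and equal on 2, with a median of -0.47. Of these, 8 were lower without overlap, against 24.4% of all probe sets, and limma called 1 (Igkv15-103), against 3.45% of all.

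The leukemic difference in HSC exceeded that in KSL on 26 of 28 probe sets, with a median gap of 3.56 log2 units. Igk-V21 had the widest, at 9.01, and Ighm 1425385_a_at followed at 8.43. limma's interaction term called 0 of the 28, against 0.00444% of all probe sets. Its unadjusted p was under 0.05 for 10 of the 28, and for 3830 of all 45037. For Igkv15-103 the gap was 2.81, with a difference of 0.13 in HSC and -2.68 in KSL.

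**Figure D4:**
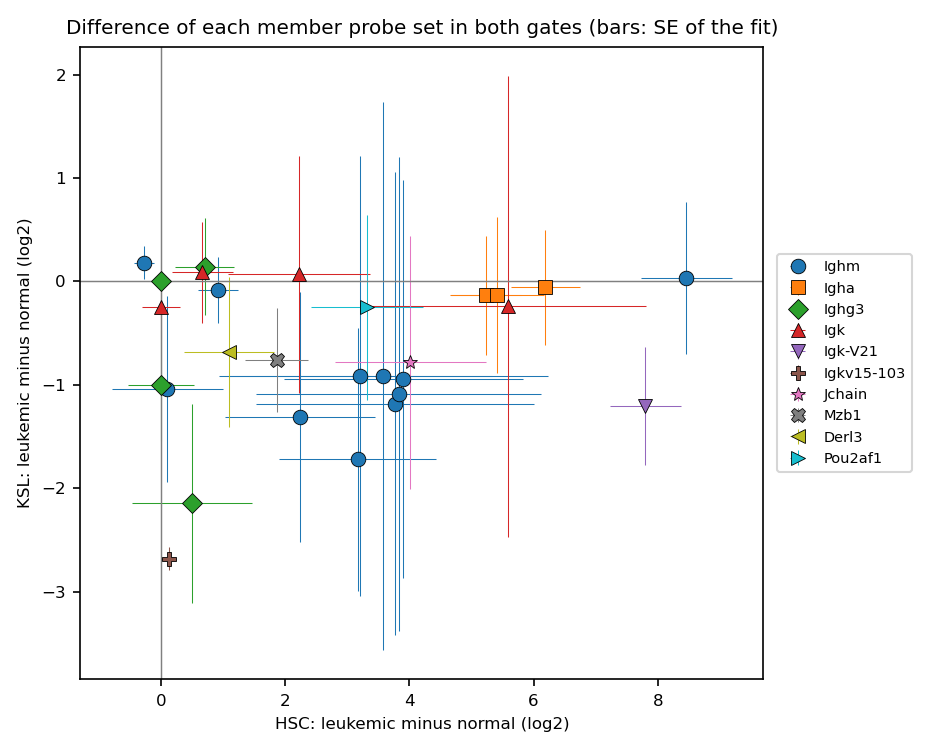
Leukemic minus normal difference of each of the 28 member probe sets in HSC (x axis) and in KSL (y axis), both in log2 units, with standard errors of the fit as bars (2 arrays per group). Most points lie right of the vertical zero line and below the horizontal one, and Igkv15-103 lies near 0.13 on the x axis and -2.68 on the y axis.

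Of 17 measured plasma cell genes outside the members, limma called 0 in HSC leukemic against normal (2 at an unadjusted p under 0.05) and 0 in KSL (3 at an unadjusted p under 0.05), with medians of 0.19 and -0.20. Of all 45037 probe sets, 5711 had an unadjusted limma p under 0.05 in HSC and 3056 in KSL. The counts of the lists below are to be read beside these. In HSC from leukemic mice 13 of the 17 were higher than in HSC from normal mice and 4 were lower. The smallest p-values in HSC belonged to Pim2, a survival kinase, and Txndc5, a protein disulfide isomerase. Pim2 averaged 8.92 ± 0.29 in HSC from leukemic mice and 8.01 in HSC from normal mice, where both arrays were nearly equal (n = 2 arrays each, SD; limma adjusted p = 0.173). Txndc5 was at 9.65 and 9.45 in HSC from leukemic mice, against 8.71 and 8.23 in HSC from normal mice (limma adjusted p = 0.315). Neither pair of groups overlapped. Xbp1, the transcription factor of the secretory programme, was at 9.26 and 9.49 in HSC from leukemic mice, against 9.07 and 9.83 in HSC from normal mice. Sdc1, the plasma cell surface marker CD138, was at 5.63 and 6.12 in HSC from leukemic mice, against 5.46 and 5.61 in HSC from normal mice. Xbp1 and Sdc1 were named after their values were seen and do not stand for the list. Tent5c was at 6.19 and 6.83 in HSC from leukemic mice, against 5.51 and 4.81 in HSC from normal mice. Slamf7 was at 4.79 and 4.97 in HSC from leukemic mice, against 4.45 and 4.45 in HSC from normal mice. Tent5c and Slamf7 were also named after their values were seen. Tnfrsf17, the receptor BCMA of plasma cells, was at 4.96 and 4.60 in HSC from leukemic mice, 4.60 and 5.00 in HSC from normal mice, 4.62 and 4.84 in KSL from leukemic mice and 5.84 and 6.57 in KSL from normal mice. Between the gates of leukemic mice, limma called Pim2 higher in HSC (1.70 ± 0.17, adjusted p = 0.024) and Creld2, an endoplasmic reticulum protein, lower (-1.20 ± 0.15, adjusted p = 0.0357).

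Genes of the endoplasmic reticulum secretory machinery were lower in HSC than in KSL from normal mice on 21 of 21, and limma called 2 of them, P4hb (-0.93 ± 0.07, adjusted p = 0.0257) and Edem1 (-0.86 ± 0.09, adjusted p = 0.0405). P4hb is a protein disulfide isomerase and Edem1 helps clear misfolded glycoproteins. Between the gates of leukemic mice limma called 1 of the 21 higher in HSC and 5 lower, where 3.45% of all probe sets were called. In HSC leukemic against normal limma called 0 of 21, with 3 at an unadjusted p under 0.05 and a median of 0.09. The members' own median in that comparison was 2.70. They were chosen with these differences known, so setting it beside 0.09 tests nothing.

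Of 19 measured B cell genes, limma called 0 in HSC leukemic against normal, with 4 at an unadjusted p under 0.05 and a median of 0.03. Ms4a1, which encodes CD20, and Bank1 were at the floor on all 8 arrays, and the other 17 were above it on every array. Cd37, a tetraspanin of leukocytes, was at 8.86 and 9.80 in HSC from leukemic mice, against 9.56 and 8.54 in HSC from normal mice. Cd74, the invariant chain of MHC class II, was at 9.87 and 9.78 in HSC from leukemic mice, against 9.23 and 9.68 in HSC from normal mice. Cd79b, a signalling chain of the B cell receptor, was at 8.28 and 8.52 in HSC from leukemic mice, against 7.38 and 6.94 in HSC from normal mice, a difference of 1.24 ± 0.18 (limma adjusted p = 0.137). The summed B cell list was 2544 to 3149 in HSC from leukemic mice and 2057 to 2603 in HSC from normal mice, and its part in the members' values was not tested. B progenitor genes, of which 9 were measured, were called lower in HSC than in KSL from normal mice for Dntt (-4.60 ± 0.43, adjusted p = 0.0355) and Il7r (-4.02 ± 0.33, adjusted p = 0.0301) by limma. Dntt adds bases when antigen receptors are rearranged and Il7r is the receptor for interleukin-7. Between the gates of leukemic mice limma called 1 of the 9 higher in HSC and 1 lower, and 1 of the 19 B cell genes higher. Of all probe sets 3.45% were called there. In HSC leukemic against normal limma called 0 of the 9 B progenitor genes, with 2 at an unadjusted p under 0.05, 4 higher and 5 lower. Igll1, named after its values were seen, was at 8.07 and 8.70 in HSC from leukemic mice, against 5.98 and 5.84 in HSC from normal mice. In KSL leukemic against normal limma called 0 of the 9, with 5 at an unadjusted p under 0.05 and a median of -1.01.

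**Figure D5:**
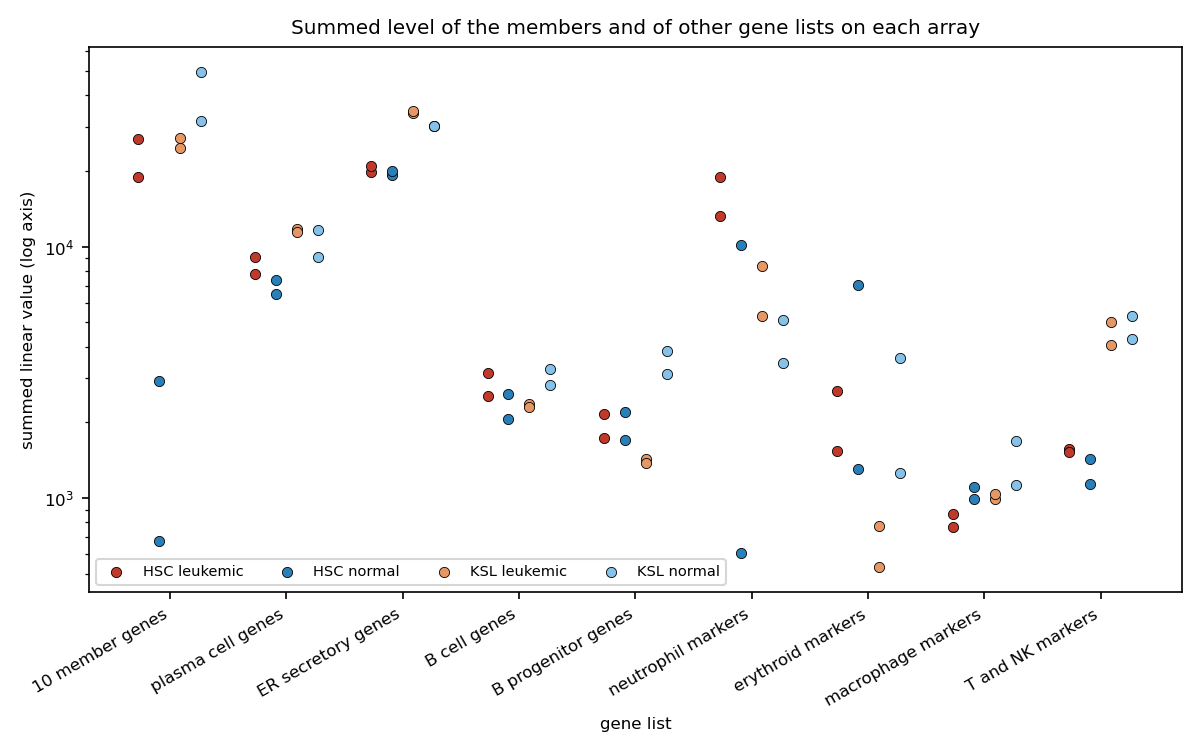
Summed linear value (y axis, log scale) of the 10 members and of 8 gene lists (x axis), with 1 point per array and colours for the 4 groups. The 2 HSC normal arrays are lowest for the members, at 2917 and 676. The plasma cell list is at 7813 to 9122 in HSC from leukemic mice and 6486 to 7400 in HSC from normal mice. The members were chosen with these differences known, so setting the sums side by side tests nothing. A linear sum follows its brightest genes. In the plasma cell list Ssr4, at 10.69 to 11.80 log2 over the 8 arrays, weighs far more than Sdc1, at 5.46 to 6.12.

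Markers of other cells that the sort gate should hold back were summed too. The macrophage list of 14 measured genes gave 769 to 867 in HSC from leukemic mice and 993 to 1109 in HSC from normal mice. In KSL it gave 993 to 1039 for leukemic mice and 1131 to 1685 for normal mice. The T and NK list of 11 gave 1520 to 1573 in HSC from leukemic mice and 1139 to 1432 in HSC from normal mice, and limma called 0 of its genes between them, with 0 at an unadjusted p under 0.05. In KSL this list was higher, at 4048 to 5040 for leukemic mice and 4303 to 5322 for normal mice. Most of the KSL sums came from 1 gene, Nkg7. It was at 12.09 and 11.69 in KSL from leukemic mice and 11.61 and 11.77 in KSL from normal mice. In HSC Nkg7 was at 9.66 and 9.76 for leukemic mice and 8.90 and 9.52 for normal mice. Between the gates of normal mice, HSC were lower on 8 of its 11 genes and higher on 3, with a median of -1.88. There limma called 2 of the 11 lower, against 0.877% of all probe sets. In leukemic mice it called 2 lower and 1 higher, against 3.45% of all. The erythroid list of 8 gave 1541 to 2657 in HSC from leukemic mice and 1307 to 7017 in HSC from normal mice. In KSL it gave 530 to 773 for leukemic mice and 1261 to 3600 for normal mice. Between the gates of leukemic mice limma called 2 of these 8 genes higher in HSC. Of the 14 macrophage genes it called 1 higher and 1 lower there. The HSC groups were unlike in control probes for RNA quality as well. The 3 prime minus 5 prime difference of Tfrc was -0.36 and -0.75 in HSC from leukemic mice, against -2.04 and -1.74 in HSC from normal mice. For Gapdh it was 1.19 and 1.03 in HSC from leukemic mice, against 0.78 and 0.83 in HSC from normal mice. For Actb it was lower instead, at -0.42 and -0.50 in HSC from leukemic mice, against -0.37 and -0.38 in HSC from normal mice. The part of either in the members' values was not tested.

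Other probe sets with immunoglobulin names lay outside the members' symbols, and 32 were listed after values were seen. In HSC from leukemic mice 22 were higher than in HSC from normal mice and 4 lower, with a median of 0.38, and 8 were over 3 log2 units higher. One of these was 1460423_x_at, annotated to a kappa variable segment, at 12.11 and 11.16 in HSC from leukemic mice and at the floor in HSC from normal mice. Probe sets of lambda light chains did not report alike. For Iglv1, 1430523_s_at was higher in HSC from leukemic mice by 6.34 ± 0.95. The Iglv1 probe sets 1447918_x_at and 1427292_at differed by 0.37 ± 0.61 and -0.19 ± 0.36, with overlapping arrays. The probe set shared by Iglc1 and Iglv1 (1424931_s_at) was at 11.91 and 11.68 in HSC from leukemic mice, against 3.32 and 3.97 in HSC from normal mice, and at 10.02 and 9.99 in KSL from leukemic mice, against 6.88 and 11.05 in KSL from normal mice.

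Genes whose pattern was most like the members were found by Pearson's r over the 8 arrays among 8048 genes, as a description with no test. Against the mean of the 7 immunoglobulin and joining chains the 5 highest were Phrf1 (0.997), Kif22 (0.965), Ap1s2 (0.962), Il10ra (0.959) and Fcer1g (0.956). The likeness with Phrf1 was close in shape but small in size, with values from 7.71 to 8.87. Against Pou2af1 the closest was Igkv6-15, a kappa variable segment (0.985), then Htt (0.965) and Arhgef39 (0.965). Against Mzb1 the closest were Igkv6-15 (0.967), Tent5c (0.959) and Bbs9 (0.949), and against Derl3 they were Gm5547 (0.934), Cd79a (0.913) and Inpp5f (0.913). All 8 points share the same groups and arrays.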

How the data were processed

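RNA of 8 sorted cell samples was measured on Affymetrix mouse arrays. The authors deposited 1 table of log2 values. The submitters' processing notes name RMA without a version, and what else was done is not given in the sources used here. Per the labels, amplification was described differently in different places. The series' design text names a Nugen Ovation Pico amplification, whereas the labelling protocol describes cRNA labelled with biotin as Affymetrix recommends, which leaves the amplification unsettled. Groups came from the titles or, for KSL from leukemic mice, whose titles carry both wordings, from the disease state label. Descriptions that mention embryos were not used. The deposited values have a floor at 10 on the linear scale, 3.32 in log2.

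Probe sets were named by the platform annotation: 34945 had 1 symbol, 932 several and 9160 none, and 64 controls were left out. limma 3.58.1 (R 4.3.3) fitted all 45037 others (1 mean per group over 8 arrays, 4 residual degrees of freedom, prior 0.56), two-sided, with Benjamini-Hochberg adjustment over all of them and a call at an adjusted p under 0.05. The number of arrays limits the precision. The fit was tested on simulated data. A gene with several probe sets was represented by the one with the highest mean. Genes named from a list are among its called ones, its 2 brightest or its 2 with the smallest p. Not every called gene of the lists is named or counted in the text. Slamf1, Xbp1, Sdc1, Tent5c, Slamf7, Igll1, Ms4a1 and Bank1 were instead named after their values were seen. Tables were made with pandas 2.3.3 and figures with matplotlib 3.10.9. Members and lists were chosen with earlier results of these data known. Alternatives changed the scaling, floor, filter, fit, probe set choice and arrays used.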

Additional observations from a re-analysis of the deposited data

Results flagged for a closer look

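For 8 member probe sets, both leukemic arrays lay on one side of both normal arrays in HSC and on the other side in KSL. How many of all probe sets did so was not counted, so the 8 cannot be read as a trait of the members. Some separations were very small, at 0.014 for Igk 1452557_a_at in KSL and 0.086 for Ighm 1427351_s_at in HSC. For Ighm 1426196_at they were 0.047 in HSC and 0.062 in KSL. The opposite directions were not tested beyond limma's interaction term, which called 0 of 28 members. The HSC minus KSL gap of the leukemic differences was 9.01 for Igk-V21, 5.83 for Igk 1452557_a_at, 4.95 for Ighm 1427869_at, 4.89 for Ighm 1427329_a_at, 4.80 for Jchain, 3.55 for Ighm 1427351_s_at and 2.65 for Ighg3 1427503_at, all higher in HSC and lower in KSL. For Ighm 1426196_at, a dim probe set, it was -0.46 in the other sense. Groups of 2 arrays allow no check for a single array that stands apart.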

How the results depend on the processing

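Across 18 other settings, only the probe set with the highest mean of each member gene was followed. None of its differences that limma called changed direction. Leaving out each array in turn gave 1 to 741 probe sets called in HSC leukemic against normal (31 with all arrays), 0 to 45 in KSL (5), 12 to 934 between the gates of normal mice (395), 9 to 2317 between the gates of leukemic mice (1552) and 0 to 204 for the interaction (2). For the members the same ranges were 0 to 2 (0), 0 to 1 (1), 1 to 4 (5), 0 to 1 (1) and 0 to 2 (0). The cause was not tested.

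In the order just given, all probe sets called were 5, 0, 12, 378 and 0 with a replicate block, and members 0, 0, 1, 1 and 0, so that between the gates of normal mice 1 of 5 calls was left. Replicate deviations correlated between -0.018 and 0.069 across groups, and same-numbered arrays were not treated as paired. Such a correlation over all probe sets cannot settle whether arrays share a source. Replicate 1 of both normal groups shares the male pattern (Eif2s3y at 9.23 in HSC and 9.35 in KSL). The erythroid list gene Car1 was also higher on replicate 1 of both, at 11.87 against 5.57 in HSC and 10.94 against 8.95 in KSL. With only the arrays compared, which leaves fewer degrees of freedom, all called were 0, 0, 0 and 15 for the pairwise comparisons, and members 0 in each. Array weights gave 5, 33, 223 and 753, with 2 members between the gates of normal mice. A variance trend gave 11 in KSL and 17 for the interaction. Quantile normalization gave 6 for the interaction. A common median gave 1 in KSL, 675 between the gates of normal mice and 0 for the interaction, and 3 members in HSC. Its split of HSC calls was 28 higher and 11 lower, against 14 and 17, and its shift of the median of all probe sets was at most 0.058. KSL calls split 5 higher and 2 lower with quantile normalization and 0 and 1 with a common median, against 2 and 3, and interaction calls 1 and 5 with quantile normalization, against 0 and 2. Without probe sets at the floor, 35638 probe sets and 24 members were tested. The counts were 16, 0, 689 and 0 (HSC, KSL, normal gates, interaction), with 4, 0 and 10 members for the first 3. Without the lowest 40%, 27022 probe sets and 23 members were tested. The counts in the same order were 18, 2, 733 and 0, with 4 members in HSC and 13 between the gates of normal mice. Between the gates of leukemic mice 2072 probe sets were called, 2 of them members. With 1 probe set per gene, 18193 probe sets and 10 members were tested. The counts were 18, 8 and 1 (HSC, KSL, interaction). Between the gates of normal mice 328 were called, 3 of them members. Without the male-pattern arrays the counts of all 5 comparisons were 91, 0, 126, 15 and 0, with members 1, 0, 3, 0 and 0.

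With 2 arrays per group and a floor that hides the low end, small differences cannot be resolved, and Pou2af1 in HSC is only bounded. The KSL differences of Igha, Derl3 and Pou2af1 depend on KSL normal 2, and the HSC differences of Igk and Jchain on which HSC normal array is used.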
